A study of Mus musculus with 24 samples.

Results

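The enzymes examined make cholesterol from acetyl units, and the 9 genes listed for them are Hmgcs1, Pmvk, Mvd, Idi1, Fdps, Sqle, Cyp51, Tm7sf2 and Dhcr7. The members are all probes that the platform's annotation pairs with these genes, in liver and in epididymal white adipose tissue (EWAT), the fat pad beside the epididymis. The rule goes by gene name, but the genes were chosen with earlier results of these data known. The rule gave 8 genes of the 19057 with a named probe, and these 8 have 11 of the 45281 probes. Hmgcs1 was not analysed here, since none of its probes is named.

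Total RNA was hybridised to Illumina mouse bead arrays. All mice were male C57BL/6J on a normal chow diet, and each received an intraperitoneal injection 48 h before the tissues were taken. The groups were liver of mice given SOX6-specific gapmer oligonucleotides, liver of mice given control gapmer oligonucleotides, and EWAT of mice given each of the same agents, with 4 animals in each group. A gapmer is an antisense oligonucleotide that directs cleavage of the RNA it pairs with, and SOX6 is a transcription factor of the SRY-related family. The animals are called S1 to S4 (SOX6 gapmer) and C1 to C4 (control gapmer) by their labels. The labels do not say that the same number in both tissues is the same mouse. The labels name no cell type to which the oligonucleotides were directed. The question addressed here is how the levels of these enzymes differ between the treatments.

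Sterol synthesis runs through the mevalonate steps, in which Hmgcs1 makes HMG-CoA and Pmvk and Mvd convert phosphomevalonate to isopentenyl diphosphate. Idi1 and Fdps then build farnesyl diphosphate, the branch point to sterols, ubiquinone, dolichol and prenylated proteins. Sqle, Cyp51, Tm7sf2 and Dhcr7 act on the sterol branch. The genes are classic targets of the transcription factor SREBP2, which is released from the endoplasmic reticulum when sterol is low, and liver is a major site of this synthesis.

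The RefSeq promoter windows of build GRCm38.p6 hold the 250 bases before each annotated start of a gene, and 7 of the 9 genes have a window. Fdps and Sqle are named only. Pmvk is shown because its probe had the lowest unadjusted p after the first Fdps probe in liver, and Idi1 because its probe was the only one of the 10 tested there with a positive difference. Capitals mark the letters CCAAT or, for a match on the other strand, ATTGG. Pmvk has 2 annotated starts and so 2 windows. The one shown, chr3:89454291-89454540, lies just upstream of the gene's outermost annotated start. The other, chr3:89459321-89459570, lies inside the gene and held no match of any motif searched. Which start is used in these tissues was not analysed here. The Idi1 window is chr13:8885356-8885605, and all of these are on the plus strand.
Pmvk: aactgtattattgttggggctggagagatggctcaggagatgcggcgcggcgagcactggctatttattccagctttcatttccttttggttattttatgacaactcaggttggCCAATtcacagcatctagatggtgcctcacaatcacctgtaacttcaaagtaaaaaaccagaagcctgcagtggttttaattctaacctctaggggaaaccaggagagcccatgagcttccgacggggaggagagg
Idi1: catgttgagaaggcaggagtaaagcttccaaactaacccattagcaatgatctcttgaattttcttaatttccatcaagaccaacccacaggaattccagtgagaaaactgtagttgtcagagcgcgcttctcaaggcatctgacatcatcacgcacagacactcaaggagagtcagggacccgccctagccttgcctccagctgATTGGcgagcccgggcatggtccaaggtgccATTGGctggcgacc

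A gene was counted where any of its windows held the letters. CCAAT, searched on both strands, was present for 7 of the 7 genes, against 37.5% of the 27025 genes with a window. For Pmvk the match lies only in the window shown. GGGCGG, the GC box, was present for 6 of 7 genes, Pmvk being the exception, against 35.4% of all genes. The sterol regulatory element letters TCACNCCAC were in the window of Hmgcs1 alone, against 1.22% of all genes. CACGTG, the E-box, was in a window of Dhcr7 alone, against 6.86% of all genes. AACAAT, a core bound by SOX proteins, was in the window of Pmvk shown above and in that of no other member, on the other strand, at -241 to -236 from the start, against 10.9% of all genes. No match overlapped a match of another motif. A match is a description of letters and not a binding site.

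The array values need a short account before the results. The share of probes above background per array was 32.9% to 36.4% for liver and 41.5% to 45.9% for EWAT. Some animals were hybridised more than once, 6 in liver and 2 in EWAT, and their arrays were averaged. Levels are log2 values after background correction and quantile normalization within the tissue. A probe was tested if its detection p was below 0.05 in at least 3 animals. The mean level of 10 hepatocyte markers was 12.17 to 12.41 across livers and 5.35 to 5.61 across EWAT samples. That of 9 adipocyte markers was 5.22 to 5.52 across livers and 11.39 to 11.94 across EWAT samples. In EWAT, S2 and S4 stood apart, with a mean level of 6 epididymal duct markers of 8.02 and 7.92, against 4.45 to 5.13 in the other 6 samples. S3 and C3 stood apart for 7 markers of ciliated and reabsorptive ducts, at 7.26 and 7.34, against 4.40 to 5.27 elsewhere.

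Sox6 itself was detected with 1 of its 5 probes. In liver this probe read 4.71, 4.81, 4.90 and 4.90 in the SOX6 gapmer animals, against 4.83, 5.24, 4.82 and 5.02 in controls. The groups overlapped, and the difference of -0.15 was not called (exact permutation p = 0.229, two-sided). In EWAT it read 5.54, 5.12, 5.74 and 4.94 in SOX6 gapmer animals, against 6.14, 6.19, 5.45 and 5.85 in controls, a difference of -0.57 (exact permutation p = 0.0857, two-sided). The array therefore does not show a called decrease of the target in either tissue, and which part of the transcript the probe reads was not analysed here.

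In liver, 1 of the 10 tested probes was called, the first Fdps probe, which fell to 71.5% of the control level. Fdps encodes farnesyl diphosphate synthase. In whole tissue, fewer cells of a type and less RNA per cell cannot be told apart. Of all 15600 probes tested in liver, 0.179% were called lower (limma, Benjamini-Hochberg adjusted p below 0.05). An unadjusted p below 0.05 with a lower mean was seen for 4 of the 10, both Fdps probes, Pmvk and Tm7sf2, and for 4.92% of all probes. In all, 9 of the 10 probes had a lower mean in SOX6 gapmer livers, and the median difference was -0.27, where 49.7% of all probes had a lower mean and their median was 0.001. For 2 of the 10, Fdps and Tm7sf2, every SOX6 gapmer liver lay below every control liver, where 3.08% of all probes did. Since the genes were chosen with earlier results known, these counts describe the members and are no independent test.

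**Figure D1:**
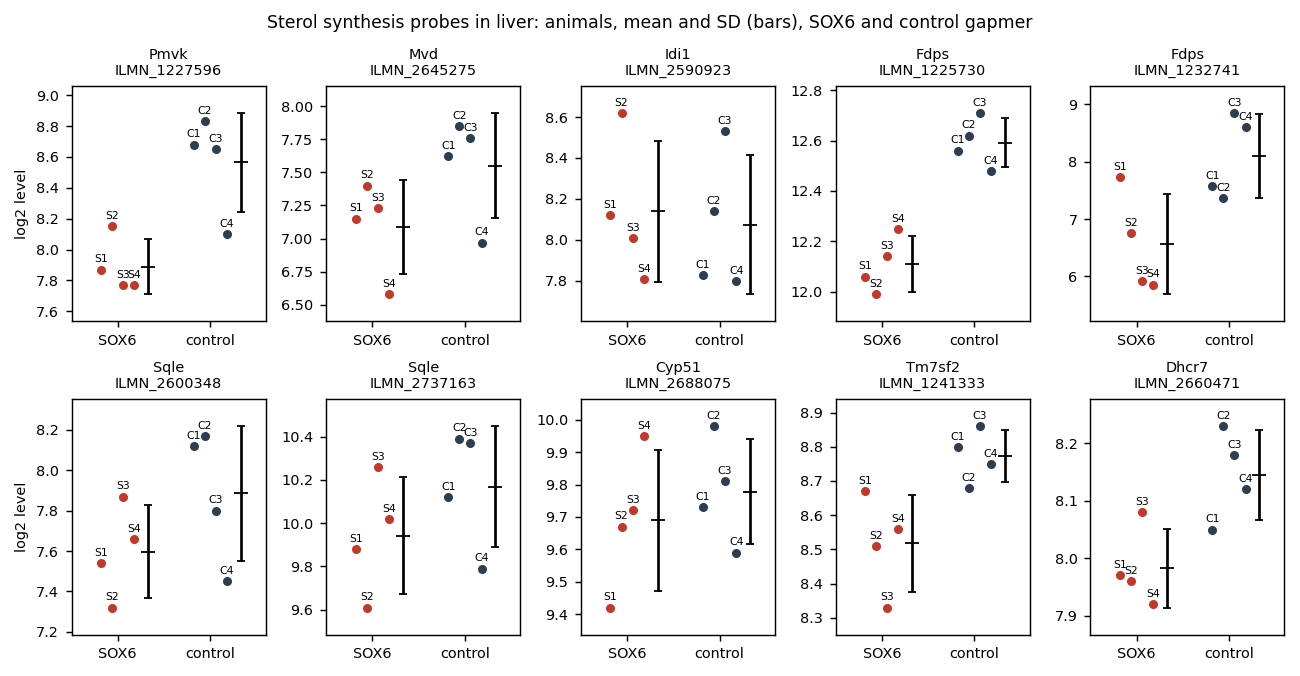
Log2 level of the 10 tested probes in each liver (points, named by animal) with group mean and SD (bars, n = 4 each), in panels with their own axes. SOX6 gapmer livers lie below all control livers for the first Fdps probe and for Tm7sf2.

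The Fdps gene lies at chr3:89093588-89101967, and Pmvk on the same chromosome at chr3:89454541-89469014. The first Fdps probe, ILMN_1225730, read 12.06, 11.99, 12.14 and 12.25 in SOX6 gapmer livers, against 12.56, 12.62, 12.71 and 12.48 in control livers. The groups did not overlap, and their nearest animals, S4 and C4, were 0.23 apart. The mean was 12.11 ± 0.11 in SOX6 gapmer livers and 12.59 ± 0.10 in control livers (SD, n = 4 each). The difference was -0.48 (SE 0.08, 95% interval -0.65 to -0.32, limma adjusted p = 0.0321). An exact two-sided permutation test gave p = 0.0286, the smallest that 4 against 4 animals allow. The call is narrow. It was lost when C1, C2, C3, S1, S2 or S3 was left out (adjusted p 0.0622 to 0.156), and kept without C4 (0.0428) or S4 (0.0407), while the difference stayed between -0.53 and -0.45. Over the 20 alternatives with a test it was kept in 10, with adjusted p from 0.00106 to 0.156. Within the 4 chips, each with 1 or 2 SOX6 gapmer and 1 to 3 control liver arrays, the difference was -0.37, -0.41, -0.72 and -0.55. Each chip held liver of only 1 SOX6 gapmer animal, S3, S4, S2 and S1 in that order. These values therefore show the SOX6 gapmer animals 1 at a time and are not replicated within a chip.

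The second Fdps probe, ILMN_1232741, had a larger difference and a larger spread. It read 7.73, 6.76, 5.92 and 5.86 in SOX6 gapmer livers, against 7.58, 7.37, 8.85 and 8.60 in controls. S1 lay above C1 and C2, so the groups overlapped. The difference was -1.53 (SE 0.43, 95% interval -2.47 to -0.60) and was not called (limma adjusted p = 0.27). Repeat arrays of 1 animal had an SD of 0.11, which was smaller than the SD between animals of 0.88 in the SOX6 gapmer group and 0.73 in the control group. Within the 4 chips the difference was -2.34, -2.28, -2.08 and 0.26. The probe carries the same reference transcript name as the first, and where each lies in it was not analysed here.

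**Figure D2:**
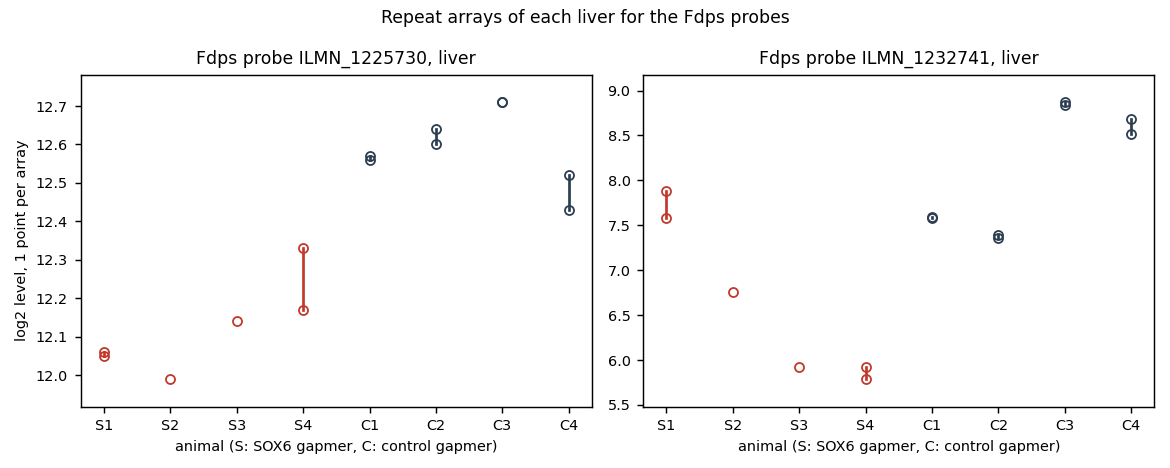
Log2 level of the Fdps probes on each liver array, with repeat arrays of an animal joined by a line and SOX6 gapmer animals (S) left of control animals (C). The first probe separates the groups, whereas the second varies from 5.79 to 7.88 among SOX6 gapmer arrays and from 7.36 to 8.87 among control arrays.

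Within an animal, the first Fdps probe minus the second was 4.33, 5.23, 6.22 and 6.39 in SOX6 gapmer livers, against 4.98, 5.25, 3.85 and 3.88 in control livers. The groups overlapped, since S1 lay below C1 and C2. The difference of 1.05 between the groups had an exact two-sided permutation p of 0.143, and 0.572 after Benjamini-Hochberg adjustment over the 4 probe pairs compared. The Sqle probes differed little between groups in liver, by -0.06 (exact p = 0.657), and the other pairs, both in EWAT, had exact p-values of 0.629 for Fdps and 0.571 for Sqle. A p that misses the threshold does not show that the probes of a gene act alike.

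Among the mevalonate enzymes, Pmvk (phosphomevalonate kinase) read 7.87, 8.15, 7.77 and 7.77 in SOX6 gapmer livers, against 8.68, 8.83, 8.65 and 8.10 in controls. The groups overlapped only where S2 lay above C4. The difference was -0.68 (SE 0.15), a level of 62.6% of the controls', and was not called (limma adjusted p = 0.166, exact permutation p = 0.0571). Without C4 it was -0.83 with a limma adjusted p of 0.0275. Mvd (mevalonate diphosphate decarboxylase, chr8:122433596-122443422) read 7.15, 7.40, 7.23 and 6.58 in SOX6 gapmer livers and 7.62, 7.85, 7.76 and 6.97 in controls. S4 and C4 were the lowest of their groups, and the difference of -0.46 was not called (adjusted p = 0.536).

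Idi1 (isopentenyl diphosphate isomerase, chr13:8885606-8892396) was the member with a positive difference. It read 8.12, 8.62, 8.01 and 7.81 in SOX6 gapmer livers and 7.83, 8.14, 8.53 and 7.80 in controls, a difference of 0.06 (95% interval -0.36 to 0.48, limma adjusted p = 0.96). Its repeat arrays had an SD of 0.34, as large as the SD between animals in each group. C3 read 8.04 on 1 chip and 9.02 on another, the chip that held the only S2 liver array. Within the 4 chips the difference was 0.29, -0.20, -0.40 and -0.09, so the sign was not the same on all chips. Each chip held liver of a different SOX6 gapmer animal, so chip and animal cannot be told apart.

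Among the sterol branch enzymes, Tm7sf2 (a sterol C14 reductase, chr19:6062821-6067850) was the other probe without overlap between the groups. It read 8.67, 8.51, 8.33 and 8.56 in SOX6 gapmer livers and 8.80, 8.68, 8.86 and 8.75 in controls. The nearest animals, S1 and C2, were 0.01 apart, and repeat arrays had an SD of 0.10. The difference was -0.25 (SE 0.10), and it was not called over all probes (limma adjusted p = 0.432, exact permutation p = 0.0286). Dhcr7 (chr7:143823167-143848410), which makes cholesterol in the last step of the Kandutsch-Russell branch, read 7.97, 7.96, 8.08 and 7.92 in SOX6 gapmer livers, against 8.05, 8.23, 8.18 and 8.12 in controls. Only S3 and C1 crossed, and the difference was -0.16 (limma adjusted p = 0.607).

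Sqle (squalene epoxidase, chr15:59315092-59331193) was read by 2 detected probes, and its remaining probe, ILMN_2573600, was detected on none of the 24 arrays. ILMN_2600348 had a difference of -0.29 and ILMN_2737163 of -0.23 (adjusted p = 0.651 and 0.706). The first read 7.54, 7.32, 7.87 and 7.66 in SOX6 gapmer livers, against 8.12, 8.17, 7.80 and 7.45 in controls. The second read 9.88, 9.61, 10.26 and 10.02 in SOX6 gapmer livers, against 10.12, 10.39, 10.37 and 9.79 in controls. C4 was the lowest control for both, and the groups overlapped. Cyp51 (lanosterol demethylase, chr5:4080674-4104697) read 9.42, 9.67, 9.72 and 9.95 in SOX6 gapmer livers, against 9.73, 9.98, 9.81 and 9.59 in controls, with a difference of -0.09 (95% interval -0.35 to 0.17, adjusted p = 0.868). Here the lowest and the second highest of the 8 livers, S1 and S4, were both SOX6 gapmer animals.

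C4 was the lowest control liver for 7 of the 10 probes, and C2 was the highest for 6. S4 was the lowest SOX6 gapmer liver for 5. C1 had the highest mean level of macrophage markers, 7.49 against 6.16 to 7.10 in the other 7 livers, and of endothelial markers, 7.10 against 6.25 to 6.69, and the part of this in the results was not tested; without C1 the first Fdps probe differed by -0.49. The mean level of the 8 genes over the 8 livers, centred by gene, was -0.17, -0.08, -0.12 and -0.20 in SOX6 gapmer animals and 0.11, 0.28, 0.30 and -0.11 in controls. C4 thus lay among the SOX6 gapmer livers. Over the 28 pairs of genes the correlation across the 8 livers was positive for 24, with a median of 0.486. In EWAT 19 of the 28 pairs were positive, with a median of 0.0931. The share of positive pairs over all genes was not analysed here. The 8 points of a tissue pool both treatments, so a difference between the groups that genes share enters these correlations. The arrays and the extraction enter them too, so this is a description.

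The genes outside the list whose level over the 8 livers was most like that mean, of 8931 genes compared, were Aplp2 (Pearson r = 0.98), Wdr25 (0.965), Cnot3 (0.963), Rnf103 (0.962) and Nrbp2 (0.954). Among so many genes and only 8 livers of both treatments, high values can arise by chance, so this ranking is a description.

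In EWAT, none of the 10 probes was called, as none of all 20292 probes was (0%), and the smallest adjusted p over all probes was 0.867 (limma). At an unadjusted p below 0.05 there were 994 probes and none of the members. In all, 5 probes had a lower mean in SOX6 gapmer EWAT and 5 a higher one, with a median of 0.05, where 56.2% of all probes had a lower mean and their median was -0.028. Mvd was the only member in which every SOX6 gapmer sample lay below every control, where 1.77% of all probes did. It read 5.86, 5.81, 5.70 and 5.83 in SOX6 gapmer EWAT, against 5.90, 5.94, 6.10 and 6.39 in controls, a difference of -0.28 (limma adjusted p = 0.867, exact permutation p = 0.0286). The nearest animals were S1 and C1, and repeat arrays had an SD of 0.09. C1 read 5.81 and 6.00 on its arrays and S1 read 5.86 on both, so single arrays of the groups overlapped.

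**Figure D3:**
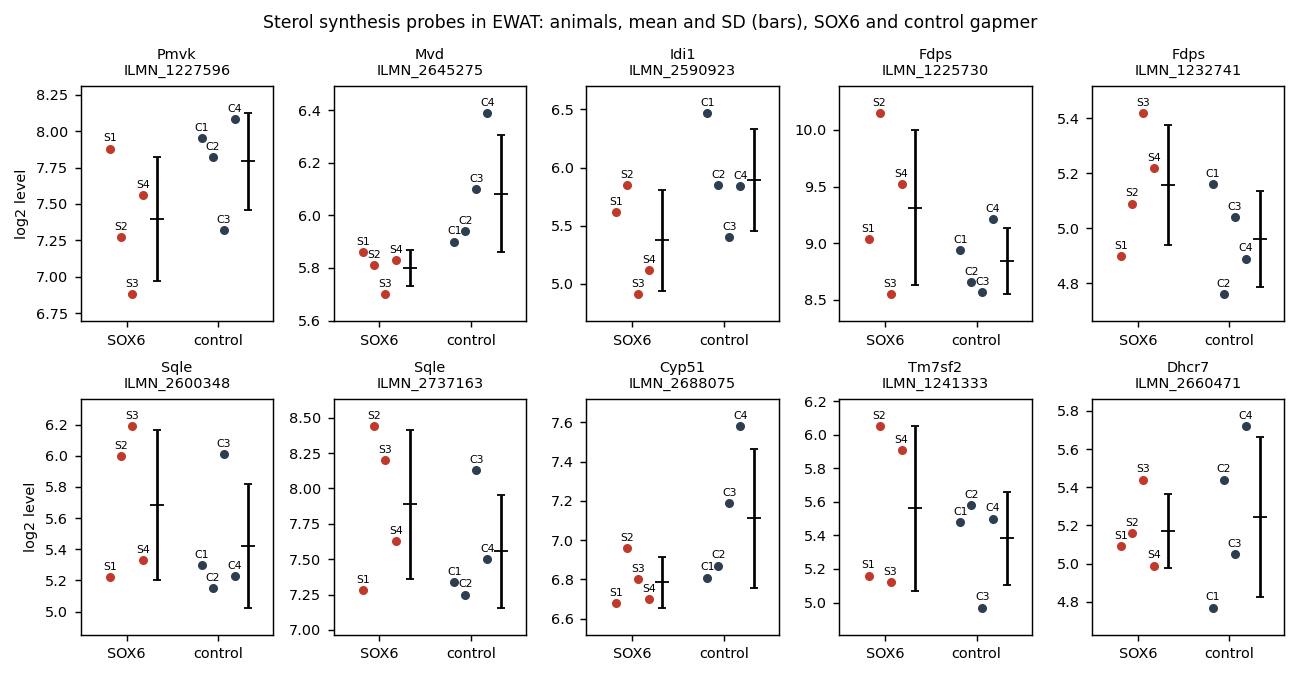
Log2 level of the 10 tested probes in each EWAT sample (points, named by animal) with group mean and SD (bars, n = 4 each), in panels with their own axes. For the first Fdps probe and for Tm7sf2 the highest samples are S2 and S4, and the group means differ by 0.47 and 0.18.

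Idi1 read 5.62, 5.85, 4.91 and 5.12 in SOX6 gapmer EWAT, against 6.47, 5.85, 5.40 and 5.84 in controls, a difference of -0.51 (95% interval -1.12 to 0.09, adjusted p = 0.867). C1 was the highest of the 8 samples and S3 the lowest. Pmvk read 7.88, 7.27, 6.88 and 7.56 in SOX6 gapmer EWAT, against 7.95, 7.82, 7.32 and 8.08 in controls, a difference of -0.39 (limma adjusted p = 0.867). Cyp51 read 6.68, 6.96, 6.80 and 6.70 in SOX6 gapmer EWAT, against 6.81, 6.87, 7.19 and 7.58 in controls, a difference of -0.33 (limma adjusted p = 0.867). S2 lay above C1 and C2 for Cyp51, and S1 above C2 and C3 for Pmvk, so both genes overlapped between the groups. Dhcr7 differed by -0.07 (limma adjusted p = 0.977), with levels of 4.99 to 5.44 in SOX6 gapmer EWAT and 4.77 to 5.72 in controls. The members with a higher mean in SOX6 gapmer EWAT were Fdps, Sqle and Tm7sf2. The first Fdps probe read 9.04, 10.15, 8.55 and 9.52 in SOX6 gapmer EWAT, against 8.94, 8.66, 8.57 and 9.21 in controls, a difference of 0.47 (SE 0.30, adjusted p = 0.868). Its values without S2 and S4 gave -0.05. The second Fdps probe, detected in 6 of the 8 animals, read 4.90, 5.09, 5.42 and 5.22 in SOX6 gapmer EWAT, against 5.16, 4.76, 5.04 and 4.89 in controls, a difference of 0.19 (limma adjusted p = 0.885). It was highest in S3, in which the first probe was lowest. Tm7sf2 read 5.16, 6.05, 5.12 and 5.91 in SOX6 gapmer EWAT, against 5.48, 5.58, 4.97 and 5.50 in controls, with a difference of 0.18, or -0.24 without S2 and S4. S2 and S4 are the samples with the high epididymal duct markers. Of 6 such markers 4 were detected in S2 and in S4, 1 or 2 in the other EWAT samples and 0 in the livers, and their part in the result was not tested.

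For Sqle the high samples were S2, S3 and C3. ILMN_2600348 read 5.22, 6.00, 6.19 and 5.33 in SOX6 gapmer EWAT, against 5.30, 5.15, 6.01 and 5.23 in controls, a difference of 0.26 (limma adjusted p = 0.913). ILMN_2737163 read 7.28, 8.44, 8.20 and 7.63 in SOX6 gapmer EWAT, against 7.34, 7.25, 8.13 and 7.50 in controls. These were the highest on both probes, and S3 and C3 carried the highest ciliated and reabsorptive duct markers. The difference of ILMN_2737163 was 0.33 (adjusted p = 0.889), and 0.42 without S3 and C3.

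**Figure D4:**
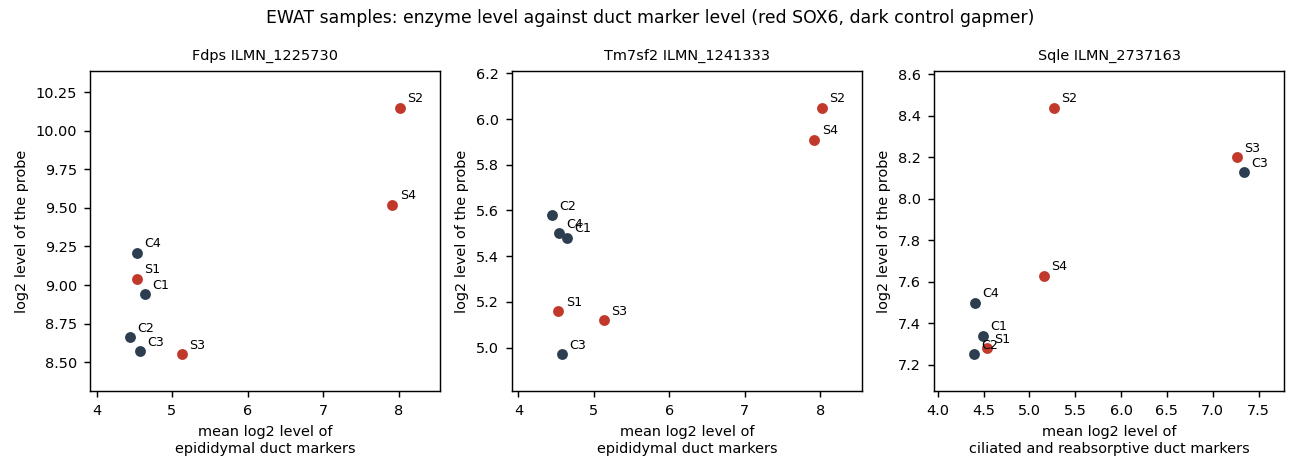
Log2 level of a probe in each EWAT sample against the mean log2 level of duct markers in that sample, with SOX6 gapmer samples in red and control samples dark. Fdps and Tm7sf2 are highest in S2 and S4, and the Sqle probe is high in S3 and C3 and in S2.

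The liver and EWAT differences of the same probe were compared in a fit of all 24 arrays normalized together. None of the 10 members passed, where 0.048% of the 14575 probes detected in both tissues did. The first Fdps probe gave -0.98 for the liver difference minus the EWAT difference (SE 0.36, limma unadjusted p = 0.0156, adjusted p = 0.728) and the second -1.58 (SE 0.48, adjusted p = 0.711). Without EWAT S2 and S4 the first was -0.40.

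**Figure D5:**
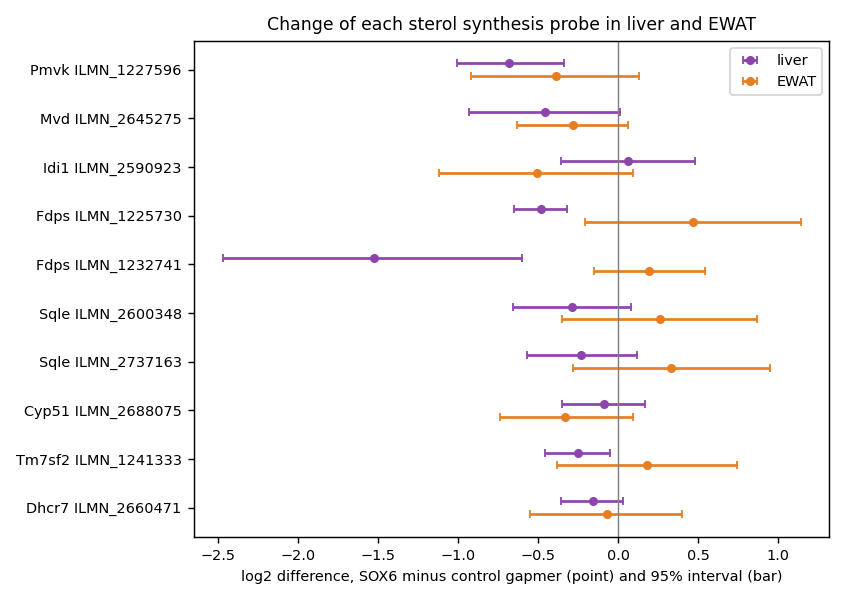
Log2 difference of each probe, SOX6 minus control gapmer, with its 95% interval, in liver and in EWAT. Liver intervals of Pmvk, both Fdps probes and Tm7sf2 exclude 0 before adjustment, and no EWAT interval does.

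Between tissues, all 10 probes were higher in control liver than in control EWAT, a comparison added after the data were seen. The fold ran from 2.8 for Pmvk to 16.5 for the first Fdps probe, with 4.79 for Mvd, 7.5 for Idi1, 9.73 for Cyp51, 11.2 for Dhcr7 and 15.6 for Tm7sf2, and with limma adjusted p-values from 4.29e-13 to 9.13e-06. Of all probes detected in both tissues, 31.7% were called higher in liver.

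The other genes of the pathway were read with the highest detected probe of each gene. In liver 7 further sterol synthesis enzymes were measured, and 0 were called; 4 had a lower and 3 a higher mean, with a median of -0.01, against 0.004 for all 8939 genes. Nsdhl (a sterol C4 dehydrogenase) differed by -0.29 (limma adjusted p = 0.584), Lss (lanosterol synthase) by -0.23 (0.715) and Msmo1 (the C4 methyl oxidase) by 0.13 (0.751). None of 6 enzymes of the isoprenoid branch was called (median 0.03), where 2 had a lower and 4 a higher mean. Fntb, a farnesyltransferase subunit, differed by -0.17 (limma adjusted p = 0.726), Dhdds, a subunit of the dolichol-making prenyltransferase, by 0.10 (0.865) and Coq2, a prenyltransferase of ubiquinone synthesis, by 0.06 (0.88). Nor was any of 6 other sterol-regulated genes (median 0.00), among them the sterol exporters Abcg5 at 0.15 and Abcg8 at 0.16 and the lysosomal carrier Npc2 at -0.24. No gene of these 3 lists was called, but only 30 of all 15600 liver probes were. Lists of 6 or 7 genes would seldom hold a call at that share, so these counts do not set Fdps apart.

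Of the 6 measured SREBP regulators all had a lower mean in SOX6 gapmer livers, and 0 were called. The sign is that of the highest probe: for Mbtps1, a protease that cuts SREBP, named here after its values were seen, that probe gave -0.03 and its other probes 0.11 and 0.05. Insig2, which holds SREBP in the endoplasmic reticulum, differed by -0.53 (limma adjusted p = 0.311) and Insig1 by -0.20 (0.687), Srebf1 by -0.12 and Srebf2 by -0.11. Their other detected probes gave -0.77 and -0.24 for Insig2, -0.31 and -0.45 for Insig1 and 0.00 for Srebf2, and none was called. Of 10 lipogenic genes that SREBP1 drives, 10 had a lower mean and 0 were called, with a median of -0.55, where 49.1% of all genes had a lower mean. For 4 of the 10 every SOX6 gapmer liver lay below every control liver, where 3.33% of all genes did. Acss2 (acetyl-CoA synthetase) read 11.08 ± 0.17 in SOX6 gapmer livers and 11.78 ± 0.26 in controls (SD, n = 4 each), a difference of -0.69 (limma adjusted p = 0.0787). Acacb (acetyl-CoA carboxylase 2) differed by -0.91 (0.1) and Acly (ATP citrate lyase) by -0.61 (0.165). In EWAT the same lists had medians of 0.04 for the regulators and -0.25 for the lipogenic genes, and -0.19 for the 8 further sterol synthesis enzymes, all 8 with a lower mean, where 54.9% of all genes had one; 0 were called. Cell type markers differed between the same samples. Of 9 adipocyte markers 8 had a lower mean, with a median of -0.29, and their mean level was 11.39 to 11.81 in SOX6 gapmer EWAT and 11.66 to 11.94 in controls. Of 6 macrophage markers 5 had a higher mean, with a median of 0.37, and the mean level of the 7 with a named probe was 7.48 to 8.41 in SOX6 gapmer EWAT and 7.05 to 8.08 in controls. None of these markers was called, and their part in the medians was not tested.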

How the data were processed

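Total RNA of liver and EWAT from the SOX6 and control gapmer groups was read on 24 arrays, 14 of liver and 10 of EWAT, on 4 chips of 6 arrays that each hold both treatments and both tissues. Per the submitters' processing notes, GenomeStudio was used by the authors, and its version is not given in the sources used here. The deposited intensity values are background-subtracted signals without normalization, with 25.7% to 37% of probes below 0 on an array. The authors deposited a detection p-value beside each signal. The authors' log2 values, quantile normalized over all arrays, served as an alternative.

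Of 45281 probes, 34885 are paired with 1 gene, 18 with several and 10378 with none, and 34807 matched RefSeq GRCm38.p6 by Entrez ID. Each tissue was corrected and quantile normalized with neqc (limma 3.58.1, R 4.3.3, offset 16), so a fold of a low probe is understated. Repeat arrays of an animal were averaged, giving 4 animals per group. Probes with a detection p below 0.05 in at least 3 animals were tested per tissue with limma (lmFit, eBayes with trend, two-sided), adjusted after Benjamini-Hochberg over all such probes, with a threshold of 0.05. Single values used exact permutation tests over animals. The number of arrays limits the precision. The fit was tested on simulated data.

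Every member probe is named. Of each other list, the members past the threshold or otherwise the 3 with the smallest p in liver are named, with Srebf1, Srebf2 and Insig1 whatever their p, and the 5 genes most like the members over the livers. The members and lists were chosen with earlier results of these data known. The alternatives varied the background correction, the normalization, the detection filter, the probe unit, the repeat arrays, the chip, the block, array weights, the trend and the animals.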

Additional observations from a re-analysis of the deposited data

Results flagged for a closer look

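In EWAT, the control sample C3 read 4.97 for the Tm7sf2 probe, apart from the other 3 controls, of which the nearest read 5.48. Its gap to that sample was 0.836 of the group's range, just above Dixon's 95% critical value for 4 samples. Of 40 groups examined for the members, this was the only one past that value, and chance flags about 1 in 20.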

How the results depend on the processing

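The liver call of the first Fdps probe was the only one among the members, so the count of member calls in liver moved with small changes. It was 0 with median scaling in place of quantiles, 0 with a floor in place of the normal-exponential correction and 0 without the trend. It was 3 (Pmvk and both Fdps probes) with chip as a fixed term and animal as a random block, and it ranged from 0 to 2 when 1 animal was left out. Over all liver probes the count was 30, and it was 179 with chip and animal terms, 53 with array weights, 19 without the trend, 47 at an adjusted p below 0.1, and 15 to 31 without 1 animal. With the replicate block it was 77, with Pmvk called (0.0477) and the first Fdps probe at 0.0503. Same-numbered animals correlated at -0.0209 to 0.332 in liver and -0.0848 to 0.583 in EWAT. With so few animals these values cannot tell whether the same number stands for a pairing. With the EWAT samples C3 and S2 to S4 left out, S1 was the lone SOX6 gapmer sample against C1, C2 and C4, and 2 of all probes and 0 members were called. That fit takes its spread from the 3 controls and assumes that S1 varies like them. The cause of these moves was not tested.

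Signs turned for some differences that were never called. Idi1 in liver gave -0.08 with chip and animal terms, -0.03 with array weights and -0.10 to 0.21 without 1 animal, and Cyp51 in liver gave -0.18 to 0.00 without 1 animal. In EWAT without S2 and S4, Fdps gave -0.05 on its first probe, Tm7sf2 -0.24 and Dhcr7 0.02. With S1 alone against the 3 controls, values of 1 SOX6 gapmer animal that bear on no direction, the second Fdps probe gave -0.03, the Sqle probes -0.02 and -0.08 and Tm7sf2 -0.35. Dhcr7 in EWAT gave -0.23 to 0.08 without 1 animal. Levels near background, as for the second Fdps probe in EWAT, limit what can be read there.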
